A study of Mus musculus with 6 samples.

Results

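The genes described here are 35 mouse genes linked to ATF4 or to the charging of tRNAs. The ATF4 response group is the transcription factor ATF4 and 9 genes that act with it or are switched on by it. The others are 8 enzymes that make serine, asparagine, cysteine and one-carbon units, 4 amino acid transporters, and 13 cytosolic aminoacyl-tRNA synthetases. All were taken by symbol from a given list, out of 55487 genes in the files. The list was drawn up with earlier results of these data known. All 35 were found. RNA came from cultured knee cartilage chondrocytes of C57B/6 mice, the cells that build and maintain cartilage matrix. In one group (M-EV, 3 libraries) the cells were given extracellular vesicles, membrane-bound particles shed by cells, that came from macrophages, and in the other (M-LPS-EV, 3 libraries) vesicles from macrophages treated with LPS, a lipid of bacterial outer membranes. Both groups had vesicles at 10 µg/ml of protein for 24 h, so every comparison is between the vesicle groups. No library came from cells without vesicles. Vesicle type cannot be told apart from anything else that differed between the groups. The labels name no genetic change, and do not say how many animals gave the cells or whether the replicates were separate cultures. The p-values therefore measure only the spread between these libraries, which may be technical.

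As background, cells that lack amino acids or hold unfolded protein in the endoplasmic reticulum phosphorylate the translation factor eIF2, which slows protein synthesis in general but raises translation of the Atf4 mRNA. ATF4 then binds C/EBP-ATF response elements next to genes for amino acid synthesis, amino acid uptake and the charging of tRNAs, often together with C/EBP proteins. Aminoacyl-tRNA synthetases join each amino acid to its tRNA before translation. In chondrocytes, which secrete large amounts of collagen and proteoglycan, ATF4 is known as a regulator of growth plate cartilage. Since ATF4 is controlled at the level of translation, its mRNA is not a measure of its protein.

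The C/EBP-ATF response element was looked for as TGATGNAA on both strands, in RefSeq promoter windows (GRCm38.p6) that run from 250 bases before each start site to 50 after it. Of the 35 genes 26 had a window, and 10 of these held the element, against 4.51% of 27025 genes with a window. The holders were Trib3, Chac1, Nupr1, Asns, Slc1a4, Aars, Gars, Iars, Tars and Yars. Cth, Slc7a5, Slc7a3, Cars, Hars, Lars, Nars, Vars and Wars had no entry. These stretches are shown because each holds the letters that name the response and belongs to a gene with lower RNA in the M-LPS-EV libraries. They are the 6 holders with the smallest p in that comparison, made with edgeR's quasi-likelihood test. Here and below a gene is called lower or higher where the p adjusted over all tested genes was under 0.05. Capitals mark the element, read on the gene's own strand from 5′ to 3′. A match on the other strand reads as TTNCATCA.
Gars, chr6:55037925-55038024, plus strand: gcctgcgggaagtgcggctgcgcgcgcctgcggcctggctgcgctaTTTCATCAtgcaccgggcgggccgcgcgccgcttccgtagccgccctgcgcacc
Chac1, chr2:119351003-119351102, plus strand: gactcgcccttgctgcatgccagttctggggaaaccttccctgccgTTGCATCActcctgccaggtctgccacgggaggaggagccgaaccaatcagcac
Nupr1, chr7:126625527-126625626, minus strand: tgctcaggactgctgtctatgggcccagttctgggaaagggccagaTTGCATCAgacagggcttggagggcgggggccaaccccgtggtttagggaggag
Asns, chr6:7693180-7693278, minus strand: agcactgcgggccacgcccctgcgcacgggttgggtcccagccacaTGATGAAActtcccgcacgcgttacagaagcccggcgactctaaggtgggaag
Tars, chr15:11399629-11399719, minus strand: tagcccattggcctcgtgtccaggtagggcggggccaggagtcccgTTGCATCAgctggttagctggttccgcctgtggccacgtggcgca
Iars, chr13:49682091-49682159, plus strand: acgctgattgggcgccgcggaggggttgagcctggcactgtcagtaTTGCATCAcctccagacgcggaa

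Counted from the first transcribed base as 0, the element began at -193 in Chac1 and -110 in Nupr1. In 7 others it lay closer to the start: at -30 in Gars, -23 in Asns, -15 in Tars, -4 in Slc1a4, 3 in Yars, 7 in Iars and 14 in Trib3. Aars held it both at -112 and at 9. The synthetases held it in 5 of 7 windows, against 3 of 10 for the ATF4 response group, 1 of 7 for the synthesis enzymes and 1 of 2 for the transporters. An element marks a sequence match, not a measured site of binding.

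**Figure D1:**
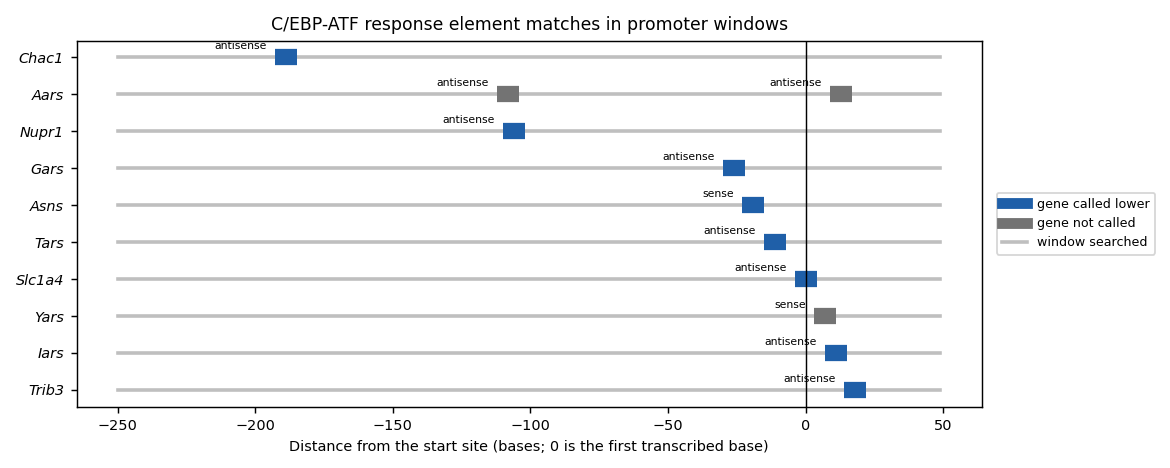
Position of each match to the C/EBP-ATF response element in the promoter windows of the 10 genes that hold one, in bases from the start site, with blue marks for genes called lower in the M-LPS-EV libraries and grey marks for genes not called. Most matches lie within 30 bases of the start site, and those of Chac1, Nupr1 and one of the 2 in Aars lie more than 100 bases before it.

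The expected counts of a library summed to between 20239626 and 25712667. The cell type label was checked against markers: the 8 chondrocyte markers, led by Col2a1 and Acan, summed to 127306 to 128233 CPM (counts scaled to a common library total) in the M-EV libraries and 107393 to 109519 in the M-LPS-EV libraries, and 7 of them were called lower. The 10 macrophage markers summed to 25.3 to 27.7 CPM in the M-EV libraries and 33.6 to 38.5 in the M-LPS-EV libraries. Of the 9 macrophage markers tested, 4 were called higher, Adgre1, Lyz2, Itgam and Cd14, and 5 were not called. Lyz2 made up most of the sum, with means of 15.5 CPM with M-EV and 22.2 with M-LPS-EV. Adgre1, Itgam and Cd14 were rare, with between 13 and 51 counts per library. Fibroblast markers summed to 2042 to 2061 and 2105 to 2151 CPM, with 2 of 8 called higher and 3 lower. Osteoblast markers summed to 106 to 109.7 and 98.0 to 103 CPM, with 2 of 6 called higher and 2 lower, and endothelial markers stayed under 3 CPM with none of 2 tested called. No marker of these lists was at 0 in either group. The part of these marker differences in the results below was not tested, and fewer cells of a type cannot be told apart from less RNA per cell in these bulk libraries.

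RNA of the 35 genes was mostly lower with M-LPS-EV, by small amounts. In the test over 14604 genes 24 of the 35 genes were lower, 3 were higher (Ddit4, Shmt2 and Stc2) and 8 were not called. Over all tested genes 31.6% were called, 15.2% lower and 16.4% higher. The median log2 fold change (M-LPS-EV over M-EV) of the 35 genes was -0.13, with a range of -0.76 to 0.47, against a median of 0.0028 for all tested genes. The 3 M-LPS-EV values lay wholly below the 3 M-EV values in 25 genes and wholly above in 2, against 20.6% and 21.5% of all tested genes (42.2% in either direction). Abundant genes are called more often: among the 2251 tested genes with a mean of at least 80 CPM, a level chosen after the values were seen, 55.5% were called, 32.7% lower and 22.8% higher, and in 37.5% the M-LPS-EV values lay wholly below. All of the 35 genes but Cbs are in that class. Together the 35 genes held 1.03% of the counts in each M-EV library and 0.981% to 0.989% in the M-LPS-EV libraries.

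The changes were small in size. Only Chac1, lower, and Ddit4, higher, also passed when tested for a change beyond 1.2-fold, as did 7.79% of all tested genes, 2.58% lower and 5.20% higher. Without that requirement, 21 of the 27 called genes kept their call in every other setting tried. The 6 that lost it in another setting were Stc2, Trib3, Cbs, Slc1a4, Slc3a2 and Tars.

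**Figure D2:**
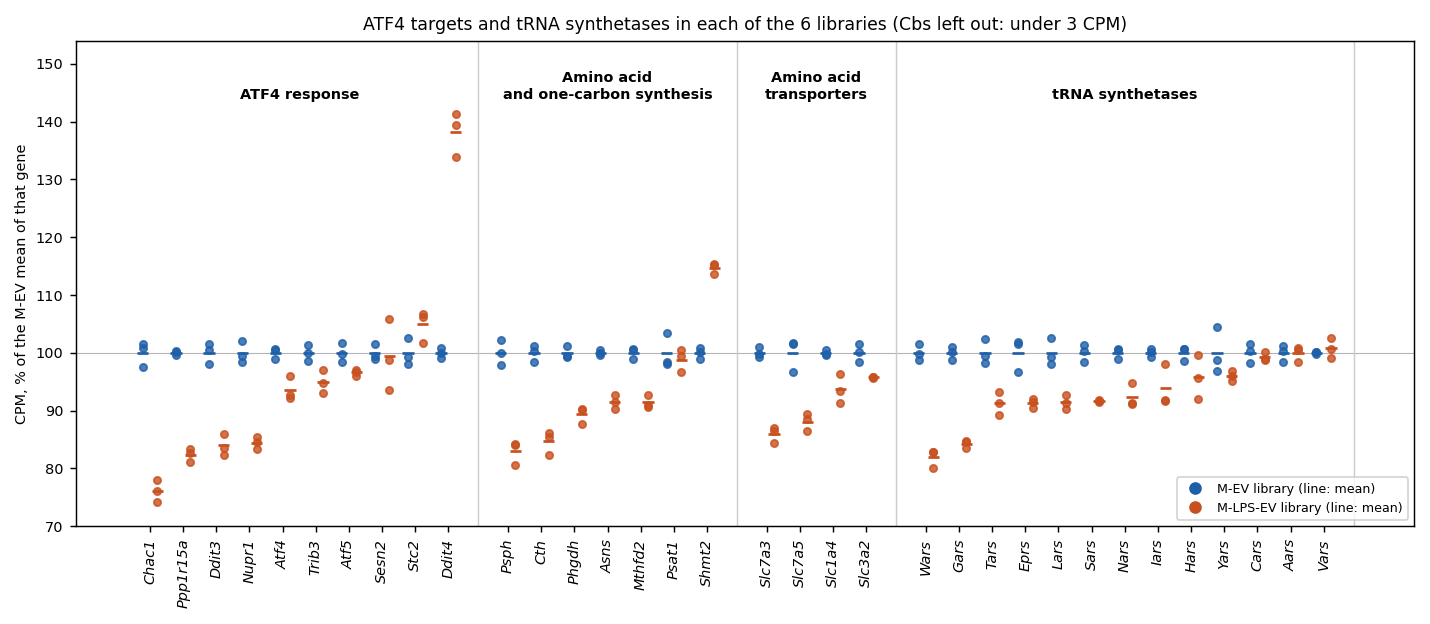
CPM of each gene in each library as a percentage of that gene's M-EV mean, with points for libraries and lines for group means; blue is M-EV and orange M-LPS-EV. Cbs, at under 3 CPM, is left out; Ddit4 and Shmt2 lie wholly above their M-EV values, and Chac1 lies lowest.

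Atf4 itself was the most abundant of these genes per unit of length, at 941 ± 6.64 TPM (a length-scaled share of all transcripts; SD, n = 3) with M-EV and 873 ± 19.4 with M-LPS-EV. Its gene is at chr15:80255184-80257541 on the plus strand (mm10). Its level was 829, 828 and 816 CPM in the M-EV libraries and 764, 759 and 791 CPM in the M-LPS-EV libraries. The groups did not overlap, and the log2 fold change was -0.10 (SE 0.02, adjusted p = 0.00036), so that Atf4 fell by 6.40%. Atf5, a relative that is also controlled by translation, had 303, 314 and 308 CPM with M-EV and 296, 298 and 299 with M-LPS-EV. Its groups did not overlap either, but the change of -0.05 (SE 0.02) was not called (adjusted p = 0.094). With upper-quartile scaling it was -0.06 with an adjusted p of 0.029.

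Falls were also measured in factors that act downstream of ATF4. Ddit3, which encodes the stress transcription factor CHOP, had 173, 171 and 167 CPM with M-EV and 143, 147 and 141 with M-LPS-EV, a log2 fold change of -0.25 (SE 0.03, adjusted p = 7.2e-08). Ppp1r15a, which encodes GADD34, the subunit that directs a phosphatase to phosphorylated eIF2, had 273, 271 and 273 CPM with M-EV and 221, 225 and 227 with M-LPS-EV, a change of -0.28 (SE 0.02, adjusted p = 3.4e-10). Nupr1, a small stress-induced nuclear protein, had 151, 147 and 145 CPM against 125, 126 and 123, a change of -0.24 (SE 0.03, adjusted p = 2.1e-07). All 3 genes were lower in every M-LPS-EV library than in any M-EV library. Whether their changes differ in size from that of Atf4 was not tested.

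Chac1, an enzyme that degrades glutathione, had the largest fall among the genes of more than 3 CPM. It is at chr2:119351229-119354381 on the plus strand, and its promoter stretch is shown above. Its level was 111, 111 and 107 CPM with M-EV and 83.5, 85.4 and 81.4 with M-LPS-EV. The groups did not overlap, and Chac1 fell by 23.9% (log2 fold change -0.39, SE 0.03, adjusted p = 7.6e-10; against 1.2-fold, adjusted p = 0.0013). Trib3, a pseudokinase that restrains ATF4 and CHOP, had 248, 252 and 255 CPM with M-EV and 245, 234 and 239 with M-LPS-EV. That change of -0.07 (SE 0.02, adjusted p = 0.019) was smaller, and the call ended without M-EV replicate 2 (adjusted p = 0.056), M-EV replicate 3 (0.11) or M-LPS-EV replicate 2 (0.077). The Trib3 call also ended with per-library effective lengths as an offset (0.19). With limma-trend on log2(TPM + 1) or log2(TPM + 0.1) it ended as well (0.11 in each). Sesn2, an inhibitor of mTORC1 that is induced when amino acids are short, had 107, 104 and 105 CPM with M-EV and 112, 98.5 and 104 with M-LPS-EV. Its M-LPS-EV libraries lay on both sides of the M-EV ones, and it was not called (log2 fold change -0.01, SE 0.04, adjusted p = 0.88).

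In this group 2 genes were higher. Ddit4, which encodes the mTORC1 inhibitor REDD1 and also answers to hypoxia and glucocorticoids, is at chr10:59949669-59951834 on the minus strand. It had 107, 106 and 107 CPM with M-EV and 150.4, 143 and 149 with M-LPS-EV. All M-LPS-EV libraries were above all M-EV libraries, with a rise of 38.1% (log2 fold change 0.47, SE 0.03, adjusted p = 4.1e-12). Stc2, a secreted glycoprotein of the stanniocalcin family, had 222, 219.5 and 229.7 CPM with M-EV and 228, 238 and 239 with M-LPS-EV. Its groups overlapped, since M-EV replicate 3 was above M-LPS-EV replicate 1. The change of 0.07 (SE 0.03, adjusted p = 0.042) lost its call in 12 of 17 other settings, among them DESeq2 (adjusted p = 0.058) and leaving out M-EV replicate 1 (0.12), M-EV replicate 2 (0.19), M-LPS-EV replicate 2 (0.11) or M-LPS-EV replicate 3 (0.12). In all, 6 of the 10 genes were lower, 2 higher and 2 not called, and the median log2 fold change was -0.09. Over all tested genes 15.2% were called lower, and 32.7% of those with a mean of at least 80 CPM.

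The synthesis enzymes were mostly lower, and only Shmt2 was called higher. Of 8 genes 6 were lower, 1 higher and 1 not called, and the median log2 fold change was -0.15. Among all tested genes 15.2% were called lower, and 32.7% of those with a mean of at least 80 CPM. Phgdh, the first enzyme of serine synthesis, had 377, 377 and 384 CPM with M-EV and 333, 342 and 342 with M-LPS-EV, a change of -0.16 (SE 0.02, adjusted p = 1.3e-06). Psat1, the second step, had 324, 341 and 323 CPM and 327, 318 and 331 CPM. Those groups overlapped, and the change of -0.02 (SE 0.02) was not called (adjusted p = 0.65). Psph, the last step, had 106, 104 and 109 CPM with M-EV and 89.4, 85.5 and 89.2 with M-LPS-EV, a change of -0.27 (SE 0.03, adjusted p = 5e-07). The first and last steps of the pathway thus had lower RNA in every M-LPS-EV library. Psph shares exon bases with Cct6a, which was also lower, as given below.

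Shmt2, the mitochondrial enzyme that turns serine into glycine and a one-carbon unit, went the other way. Its gene is at chr10:127517123-127522444 on the minus strand. It had 587, 576 and 584 CPM with M-EV and 672, 661 and 671 with M-LPS-EV. Every M-LPS-EV library was above every M-EV library, with a rise of 14.7% (log2 fold change 0.20, SE 0.02, adjusted p = 5.2e-09). Mthfd2, which acts after Shmt2 in the mitochondrial folate pathway, had 275, 279.7 and 279 CPM with M-EV and 252, 253 and 258 with M-LPS-EV. It was lower in all M-LPS-EV libraries (log2 fold change -0.13, SE 0.02, adjusted p = 6.7e-05).

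Asns, asparagine synthetase and a standard reporter of ATF4 activity, had 363, 361 and 364 CPM with M-EV and 332, 327 and 336 with M-LPS-EV. The groups did not overlap and Asns fell by 8.55% (log2 fold change -0.13, SE 0.02, adjusted p = 2.7e-05). Cth, which releases cysteine from cystathionine, had 124, 126 and 128 CPM against 108, 109 and 104, a change of -0.24 (SE 0.03, adjusted p = 9.4e-07). Cbs, which makes cystathionine, was the rarest of the genes, with 59, 55 and 37 counts in the M-EV libraries and 22, 37 and 24 in the M-LPS-EV libraries. Scaled for depth these were 2.31, 2.49 and 1.64 CPM against 1.03, 1.56 and 1.18 CPM, so the groups lay close together but did not overlap. The change of -0.76 (SE 0.24, adjusted p = 0.017) was thus the largest in size and the least precise. Its call ended without M-EV replicate 1 (adjusted p = 0.065), M-EV replicate 2 (0.075) or M-LPS-EV replicate 1 (0.074). The Cbs call also ended with per-library effective lengths as an offset (0.15). With limma-trend on log2(TPM + 1) or log2(TPM + 0.1) it ended as well (0.2 in each).

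All 4 transporters were lower, against 15.2% of all tested genes and 32.7% of those with a mean of at least 80 CPM. Slc7a5, the light chain of the LAT1 exchanger that imports large neutral amino acids such as leucine, had 490.0, 465 and 489 CPM with M-EV and 426, 430.3 and 416 with M-LPS-EV, a change of -0.18 (SE 0.02, adjusted p = 4.4e-07). Its partner Slc3a2, the heavy chain that carries LAT1 and related transporters to the surface, had 437, 423 and 430.3 CPM and 412, 412 and 411 CPM, a change of -0.06 (SE 0.02, adjusted p = 0.020). The 3 M-LPS-EV values of Slc3a2 were nearly equal and below all M-EV values. Slc3a2 was not called without M-EV replicate 1 (adjusted p = 0.12) or M-EV replicate 3 (0.067), or with per-library effective lengths as an offset (0.052). Slc7a3, a carrier of cationic amino acids such as arginine, had 132, 134 and 132 CPM against 115, 112 and 115, a change of -0.22 (SE 0.03, adjusted p = 1.9e-06). Slc1a4, a carrier of alanine, serine and cysteine, had 175, 177 and 176 CPM against 169.5, 164 and 161. No Slc1a4 value overlapped between groups, but its change of -0.09 (SE 0.03, adjusted p = 0.0090) was not called without M-LPS-EV replicate 3 (adjusted p = 0.053) or with the length offset (0.063). Nor was it called by limma-trend on log2(TPM + 1) (0.067) or log2(TPM + 0.1) (0.069).

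Of the 13 synthetases 8 were lower, 0 higher and 5 not called, and the median log2 fold change was -0.11. The called share was 61.5%. Of all tested genes with a mean of at least 80 CPM, 55.5% were called, 32.7% lower and 22.8% higher. At an unadjusted p under 0.05 the same test had 0 higher as well, and DESeq2 and limma-voom also called 0 higher. The largest falls were in Wars and Gars. Wars, the tryptophan enzyme, which interferon is also known to induce, is at chr12:108860030-108894174 on the minus strand. It had 191, 194 and 189 CPM with M-EV and 158, 159 and 153 with M-LPS-EV, and fell by 18.1% (log2 fold change -0.29, SE 0.03, adjusted p = 2.6e-09). Gars, the glycine enzyme, at chr6:55038007-55079500 on the plus strand, had 559.5, 572 and 567 CPM with M-EV and 473, 479 and 479.7 with M-LPS-EV, and fell by 15.7% (log2 fold change -0.25, SE 0.02, adjusted p = 1.6e-10). In both genes the gap between the groups was wider than the range within either group.

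The other 6 lower synthetases differed by less and by like amounts, from -0.13 to -0.09 on the log2 scale. Eprs, which charges both glutamate and proline, had 719.7, 758 and 756 CPM with M-EV and 681, 686 and 674 with M-LPS-EV (log2 fold change -0.13, SE 0.02, adjusted p = 1.8e-05). Iars, the isoleucine enzyme, had 358, 363 and 361 CPM and 331, 354 and 330.2 CPM, so that M-LPS-EV replicate 2 came close to the M-EV level (log2 fold change -0.09, SE 0.02, adjusted p = 0.0057). Lars (leucine), Nars (asparagine), Sars (serine) and Tars (threonine) also had no overlap between groups. Lars had 338, 353 and 342 CPM with M-EV and 314, 319 and 311 with M-LPS-EV (log2 fold change -0.13, SE 0.02, adjusted p = 6.9e-05). Nars had 550.1, 551 and 542 CPM and 499.8, 499 and 519 CPM, a change of -0.11. Sars had 395, 384 and 391 CPM and 358, 357 and 357 CPM, with M-LPS-EV libraries that were almost equal and a change of -0.13. Tars had 252, 262 and 254 CPM and 229, 234 and 239 CPM, also a change of -0.13. Tars, whose promoter stretch is shown above, was not called on the TPM scale (limma-trend on log2(TPM + 1), adjusted p = 0.061).

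The 5 synthetases that were not called had overlapping groups. Aars, the alanine enzyme, had 534, 519 and 529.6 CPM with M-EV and 519.6, 532 and 530.3 with M-LPS-EV, a change of -0.0013 with an SE of 0.02 (adjusted p = 0.97). Vars (valine) had 203, 204 and 204 CPM and 209, 202 and 205 CPM, and Cars (cysteine) 155, 153 and 150.0 CPM and 153, 151 and 151 CPM. Neither group of libraries stood above the other in these 3 genes. Hars (histidine) had 86.9, 87.0 and 85.2 CPM and 79.4, 82.6 and 86.1 CPM, and Yars (tyrosine) 141, 152 and 143 CPM and 141, 139.6 and 138 CPM. Both had a log2 fold change of -0.06, with adjusted p of 0.20 and 0.16. The SE of these 5 changes was 0.02 to 0.04 on the log2 scale.

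**Figure D3:**
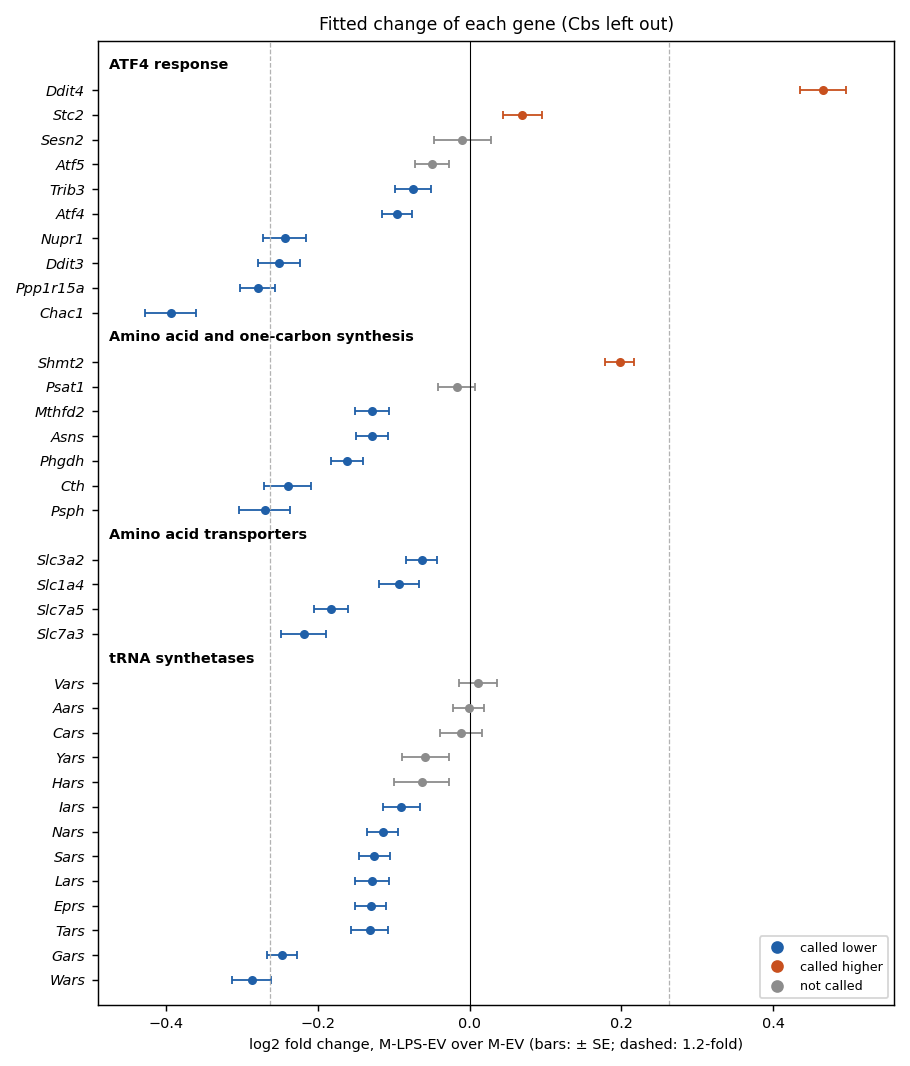
Log2 fold change of each gene (M-LPS-EV over M-EV, edgeR; Cbs, at -0.76, is left out) with bars of 1 SE, by role; blue is called lower, orange called higher, grey not called, and dashed lines mark 1.2-fold. Most genes lie between 0 and -0.29; Ddit4 at 0.47 and Chac1 at -0.39 lie farthest out of the genes plotted and were the only 2 called against 1.2-fold, while Wars, Ppp1r15a and Psph lie just past the line without passing that test.

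Among the 26 genes with a window, those with a match and those without had the same median log2 fold change after rounding. Elements outside the window, or spelled otherwise than TGATGNAA, would have been missed. Of the 10 holders 8 were lower, 0 higher and 2 (Aars and Yars) not called, and the median log2 fold change was -0.11. Of the 16 genes with a window but no match, 10 were lower, 3 higher and 3 not called, and their median was also -0.11. All 3 genes with higher RNA, Ddit4, Shmt2 and Stc2, were among those without a match, but Stc2 lost its call in 12 of 17 other settings. Among all tested genes with a mean of at least 80 CPM, 32.7% were called lower and 22.8% higher. Whether genes with and without a match differ was not tested.

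Ordered by TPM in the M-EV libraries, Atf4 was followed by Shmt2 at 542 ± 7.33 (SD, n = 3), Slc3a2 at 499.8 ± 12.9, Gars at 469 ± 5.67, Ddit3 at 438 ± 8.56 and Nupr1 at 430.3 ± 9.41. Ddit3 and Nupr1 did not differ beyond their spread, and neither did Sars (417 ± 5.15) and Nars (415 ± 7.04). The lowest were Slc1a4 at 82.6 ± 0.235, Sesn2 at 56.2 ± 0.884 and Cbs at 3.32 ± 1.82 TPM. With M-LPS-EV Shmt2 reached 616 ± 8.05 TPM, while Gars was at 393 ± 1.22, Ddit3 at 363 ± 6.05 and Nupr1 at 359.9 ± 10.1. Ddit4, at 119.9 ± 1.33 TPM with M-EV and 164 ± 5.0 with M-LPS-EV, passed Chac1, which went from 134 ± 2.77 to 101 ± 2.33.

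Most of these genes were read from a single main transcript. In 24 of 35 the main transcript held a mean of at least 80% of the gene's abundance, 3 genes (Chac1, Sesn2 and Ddit4) have a single transcript in the files, and all 35 main transcripts code for protein. In Nars the leading transcript held a mean of 44.6%, and in Cbs 36.5%, with a range over the M-EV libraries of 0 to 67.4%. Transcripts annotated with a retained intron held 23.6% to 28.1% of Tars with M-EV and between 22.9% and 31.2% with M-LPS-EV. The main Slc3a2 transcript held 67.6% to 70.1% and 71.2% to 73.5%. These shares are RSEM estimates and were not tested.

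Some values rest on sequence shared with other genes. The main Aars transcript of 5750 bases contains 1326 bases identical to Exosc6, which is listed with 0 counts in every library, so the level of Aars is uncertain. Phgdh has 9 processed pseudogenes of at least 95% identity, whose counts together came to 2.15% of those of Phgdh, nearly all in Gm7901. Psph shares 452 exon bases with Cct6a on the opposite strand, and Cct6a had 30637 counts against 13192 for Psph. Cct6a itself was lower with M-LPS-EV (log2 fold change -0.11, SE 0.03, adjusted p = 0.0022). Shmt2 shares 32 bases with the opposite-strand gene Ndufa4l2, which had 7.72% as many counts and was higher with M-LPS-EV (log2 fold change 1.46, SE 0.05, adjusted p = 1.8e-18). Ddit3 shares 68 bases with Mars, which had nearly as many counts and was not called (log2 fold change -0.01, adjusted p = 0.83). Hars and Hars2 share 195 bases and Atf5 and Nup62 share 82, again on opposite strands. The libraries were made with a stranded kit, but the strand setting of the counting is not given in the sources used here, and the part of these overlaps in the values was not tested.

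The genes that sense stress and control eIF2 act upstream of ATF4. Of 16 genes for the eIF2 kinases, eIF2 and its exchange factor, 5 were lower, 1 higher and 10 not called, with a median of -0.07. The called share of this list, 37.5%, was near the 31.6% of all tested genes. Eif2ak3, the kinase PERK that senses unfolded protein, went from 68.7 ± 1.51 to 61.6 ± 1.12 CPM (SD, n = 3), a log2 fold change of -0.16 (SE 0.04, adjusted p = 0.0016). The subunits of eIF2 itself were lower too: Eif2s2 by -0.14, Eif2s1 by -0.14 and Eif2s3x by -0.10, the last 2 of which were not called on the TPM scale (adjusted p = 0.38 and 0.086). Eif2ak4, the kinase GCN2 that senses uncharged tRNA, was not called, with 28.1 ± 1.29 and 27.6 ± 0.627 CPM. The 1 higher gene, named because the count is small, was Eif2ak2, the kinase PKR, with a log2 fold change of 0.25 (SE 0.07, adjusted p = 0.0085) and overlapping groups. It lost its call without M-EV replicate 1 and on both TPM scales, which left 0 higher. The length offset and both TPM scales left 2 of the list lower.

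Other genes linked to ATF4 were split. Of 19 tested, 9 were lower, 4 higher and 6 not called, with a median of -0.05. The called share was 68.4%, against 31.6% of all tested genes. Cebpb, the C/EBP factor that can pair with ATF4, had 35.9, 30.1 and 33.2 CPM with M-EV and 75.2, 83.0 and 86.5 with M-LPS-EV, a log2 fold change of 1.30 (SE 0.05, adjusted p = 3.3e-16). Ero1l, an oxidase of the endoplasmic reticulum, rose by 0.32 (SE 0.02, adjusted p = 1.5e-11). The secreted stress hormone Gdf15 went from 42.6, 42.5 and 42.5 CPM to 28.4, 31.0 and 29.8, a change of -0.52 (SE 0.05, adjusted p = 1.1e-09). Pycr1, the last enzyme of proline synthesis, went from 125, 124 and 124 CPM to 94.5, 96.3 and 89.4, a change of -0.41 (SE 0.03, adjusted p = 2.5e-10). Both Gdf15 and Pycr1 were lower in every M-LPS-EV library, and Pycr1 holds the response element in its window.

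Of the synthetases outside the 35 genes, 36.4% of the cytosolic list and 35.3% of the mitochondrial list were called, near the 31.6% of all tested genes. Of 11 other cytosolic synthetases and scaffold proteins of the multi-synthetase complex, 3 were lower, 1 higher and 7 not called, with a median of -0.04. Rars (arginine) and Kars (lysine) were lower by -0.16 and -0.12 (adjusted p = 0.0005 and 0.0031), while the scaffold gene Aimp2 was higher by 0.18 (adjusted p = 0.0079). Aimp2 lost its call with the length offset (adjusted p = 0.087) and on both TPM scales (0.069), which left 0 higher. Of 17 mitochondrial synthetases 3 were lower, 3 higher and 11 not called, with a median of 0.01. The 3 higher became 1 without M-EV replicate 1, M-EV replicate 3 or M-LPS-EV replicate 1, and 0 with DESeq2, the length offset and both TPM scales. Both TPM scales left 1 lower. Lars2, the largest of these changes, had 157, 138 and 134 CPM with M-EV and 113, 94.0 and 129 with M-LPS-EV, a wide spread around a log2 fold change of -0.36 (SE 0.07, adjusted p = 0.00013) that DESeq2 did not call (adjusted p = 0.063). None of the 9 other cytosolic and 14 mitochondrial genes with a promoter window held the response element, against 4.51% of all genes with a window. At that share few holders would be found in so few windows. The difference between the lists was not tested.

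The folate enzymes and transporters outside the 35 genes moved both ways. Of 15 other folate enzymes tested, 5 were lower, 3 higher and 7 not called, with a median of 0.03. The called share was 53.3%, against 31.6% of all tested genes. The 5 lower became 2 without M-EV replicate 1, M-EV replicate 3 or M-LPS-EV replicate 1, 3 without M-LPS-EV replicate 2 or with DESeq2, and 1 with the length offset and both TPM scales. Those last 3 settings also left 1 higher. Mthfd1l, the mitochondrial enzyme that releases formate, was higher as Shmt2 was (log2 fold change 0.26, SE 0.03, adjusted p = 1.3e-08), and Mtr, methionine synthase, was lower (-0.19, SE 0.04, adjusted p = 0.00057). Of 16 other amino acid transporters 6 were lower, 5 higher and 5 not called (68.8% called), with a median of -0.03. Both TPM scales left 3 lower and 3 higher. Slc7a11, the cystine importer xCT and a known target of both ATF4 and NRF2, had 35.1, 35.1 and 37.0 CPM with M-EV and 53.4, 53.7 and 59.9 with M-LPS-EV (log2 fold change 0.64, SE 0.05, adjusted p = 4.1e-11). It holds the response element in its window and was higher in every M-LPS-EV library. The arginine carrier Slc7a2 rose from 549.9 ± 4.45 to 744 ± 9.60 CPM (SD, n = 3; log2 fold change 0.44, SE 0.02, adjusted p = 8.5e-16), whereas its relative Slc7a3 fell. Slc1a5, the glutamine carrier ASCT2, was lower (-0.22, SE 0.02, adjusted p = 5.2e-09), as Slc1a4 was.

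Chaperones and other ATF6 and XBP1 targets of the endoplasmic reticulum were lower in 17 of 20 genes and not called in 3, with a median log2 fold change of -0.16. Over all tested genes 15.2% were called lower, and 32.7% of those with a mean of at least 80 CPM. Hspa5, the chaperone BiP, went from 1841 ± 12.6 to 1452 ± 19.0 CPM (SD, n = 3), Pdia6 from 530.5 ± 7.30 to 452 ± 2.72, and Calr from 1101 ± 5.60 to 958 ± 19.6. The endoplasmic reticulum stress element, searched on both strands as CCAAT and CCACG with 9 bases between them, was in 8 of 17 windows of that list and in none of the 26 windows of the 35 genes, against 0.137% of all genes with a window. The C/EBP-ATF response element was in none of the 17.

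**Figure D4:**
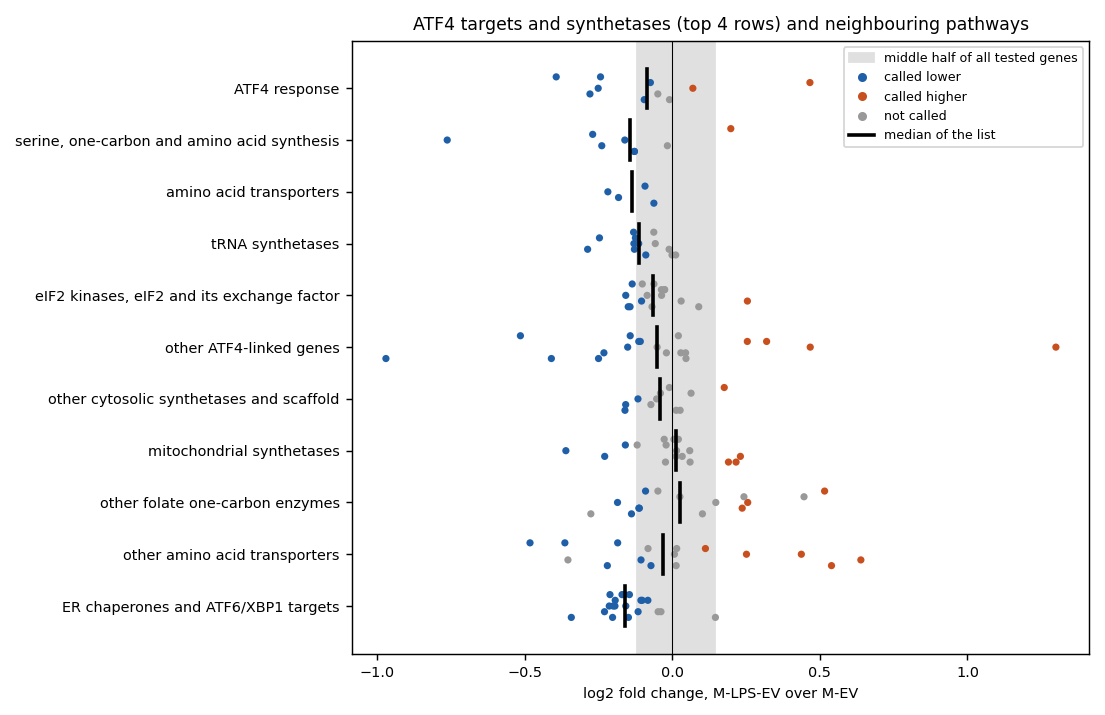
Log2 fold change (M-LPS-EV over M-EV) of each tested gene in the 4 role groups (top rows) and 7 neighbouring lists, with black bars for medians and a grey band for the middle 50% of all tested genes. The medians of the synthesis enzymes, the transporters and the endoplasmic reticulum list lie left of the band, and Cebpb lies farthest to the right at 1.30.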

How the data were processed

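The submitters' processing notes name the aligner STAR, the quantifier RSEM, DESeq2 and the build mm10. Their versions, the annotation and the strandedness used in counting were not given in the sources used here. The authors deposited, per library and transcript, an expected count (RSEM's estimate, which need not be whole), TPM scaled by effective length, and IsoPct, each transcript's percent of its gene; length columns in the deposited files are in bases, per the file headers. Of 142699 transcripts 99.14% were in GENCODE M21, which gave symbols and 1-based coordinates. Ddit3 has a second identifier, and the one with more counts was used.

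Expected counts were summed per gene, rounded, filtered with filterByExpr (minimum count 10, minimum total 15; 14604 genes, 99.9% of counts), scaled by TMM and tested with edgeR 4.0.16 (R 4.3.3, glmQLFit and glmQLFTest, group as the only term, two-sided, Benjamini-Hochberg over all tested genes). The test was also run on simulated counts with few changed genes, unlike these data, so that run does not measure its error rate here. The SE is the size of the log2 fold change divided by the square root of F. CPM were computed with TMM-scaled totals, and each SD is over 3 libraries. Promoter sequences are from RefSeq (GRCm38.p6), and shared sequence was searched with blastn 2.17.0 (at least 200 bases and 95% identity). Figures were drawn with matplotlib 3.10.9.

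The 35 genes and all lists were chosen with earlier results of these data known. Any of the 35 genes may be named; of each neighbouring list, up to 4 tested genes with the smallest p are named, and the 2 eIF2 kinases Eif2ak2 and Eif2ak4 and the marker genes were named after their values were seen. The alternatives were RLE and upper-quartile scaling, no filter, a mean count of at least 50, a length offset, a replicate block, leaving out single libraries, DESeq2 1.42.0, limma-voom and limma-trend (limma 3.58.1) with TPM pseudocounts of 1 and 0.1, and a minimum change of 1.2-fold.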

Additional observations from a re-analysis of the deposited data

How the results depend on the processing

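None of the 27 called among the 35 genes reversed its direction under the 17 alternatives, and the median log2 fold change of all tested genes stayed within -0.013 to 0.012. The cause of the following moves was not tested. Genes called higher, 2397, became 1539 with the effective length offset, 1280 with limma-trend on log2(TPM + 1) and 1284 with log2(TPM + 0.1); genes called lower, 2217, became 1329, 1342 and 1335. Against a change of at least 1.2-fold 760 genes were higher and 377 lower, so 66.8% of calls were higher against 52.0%. By the construction of that test fewer calls remain: of the 35 genes 1 higher and 1 lower, both in the ATF4 response group (1 and 1), with 0 higher and 0 lower among the synthesis enzymes, 0 lower among the transporters and 0 lower among the synthetases. The ATF4 response group had 2 genes higher, and 1 with RLE scaling, upper-quartile scaling, no filter, the length offset, DESeq2 and both TPM scales, as Stc2 lost its call. The length offset left 2 transporters lower.

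Leaving out each library gave 2100 to 2245 genes higher and 1878 to 2072 lower, 2 to 3 of the 35 genes higher and 22 to 23 lower, and 1 to 2 higher in the ATF4 response group. Of the genes that were not called, Sesn2, Psat1, Cars, Vars and Aars changed sign, while Atf5, Hars and Yars stayed negative in every setting. Over the libraries left out, Sesn2 ranged from -0.0584 to 0.0345 (0.0015 without M-EV replicate 1), Psat1 from -0.0306 to 0.0079, Cars from -0.0245 to 3.5e-05, Vars from -0.0026 to 0.0245 and Aars from -0.0131 to 0.0086, with 0.0076 and 0.0007 without M-EV replicates 1 and 3. Aars was also 0.023 with the length offset and 0.0091 on both TPM scales, and Vars -0.0028 with upper-quartile scaling.

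Same-numbered libraries showed no shared deviation (correlations 0.028, -0.044 and -0.019), which does not settle whether the numbers pair the samples. With the replicate block 2346 genes were higher and 2173 lower, and of the 35 genes 3 were higher and 24 lower. Counting depth limits Cbs, with 22 to 59 counts per library; it was not tested at a mean count of at least 50.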
